A study of Caenorhabditis elegans with 12 samples.

Results

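The genes described here encode subunits of the 26S proteasome of Caenorhabditis elegans. They were taken by name: every gene whose name begins with pas-, pbs-, rpt- or rpn- in the authors' gene tables, which gave 32 of 39665 genes. N2 wild-type XX hermaphrodites were compared with XX animals homozygous for fog-2(q71), strain JK574, which are labelled females because they make no sperm. All were adults, grown at 20 °C on agar plates with OP50 bacteria, and RNA came from whole worms. Each of 6 RNA samples, 3 per genotype, was made into a library primed with oligo-dT and one primed with random hexamers, so 12 libraries formed 4 groups of 3. The primings were set side by side in the series to look for effects of the mutation on poly(A) tails. FOG-2 belongs to the F-box proteins and, as a partner of GLD-1, permits sperm production in the hermaphrodite germline.

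The proteasome is the protease that degrades ubiquitin-tagged proteins in the cytoplasm and nucleus. Its 20S core is a stack of rings of alpha subunits (pas genes), which gate the entrance, and beta subunits (pbs genes), of which PBS-1, PBS-2 and PBS-5 are the counterparts of the proteolytic beta subunits of yeast and mammals. The 19S regulatory particle holds a ring of AAA ATPases (rpt genes) that unfold substrates, and non-ATPase subunits (rpn genes) that bind ubiquitin chains, remove them and scaffold the particle. Germ cells and early embryos depend on it, and in the worm the ubiquitin receptor RPN-10 is known to act in hermaphrodite sex determination through the protein TRA-2. No subunit sequence is shown.

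The deposited values are 1 FPKM (fragments per kilobase of gene model and per fixed number of mapped fragments) per genotype and priming, which the authors estimated over the 3 libraries of a group. Values of single libraries were not analysed here, so no SD can be given, and read depth is unknown. The error used below is the standard error that the authors' p-value implies for the log2 fold (fog-2 over N2) under a two-sided normal test. Gene fog-2, the check of the genotype labels, was at 64.2 (N2) and 14.4 FPKM (fog-2) with oligo-dT, and at 34.9 and 7.08 with hexamers (q = 0.00636 and 0.0103 in the authors' deposited table). Major sperm protein genes, which mark sperm, summed to 153 FPKM in N2 and 35.6 in fog-2 over 29 tested genes with oligo-dT. With hexamers they summed to 21.4 and 6.76 over 5 tested genes, and none of the tested was at 0. At a q-value of at most 0.05 in the authors' deposited tables, 14 of the 29 were lower in fog-2 with oligo-dT. With hexamers 0 of the 5 were, at N2 levels of 2.88 to 5.32 FPKM and a median implied standard error of 1.61. In RNA of whole worms, fewer cells of a type cannot be told apart from less RNA per cell, and the part that sperm content has in any subunit's value was not tested.

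Of the 32 subunit genes, the authors tested 29 with oligo-dT and all 32 with hexamers. The other 3 with oligo-dT, pas-3, pbs-1 and rpn-9, carry Cuffdiff's status for an excess of fragments in a locus and a placeholder of 0, which is not a measurement. The subunit genes lie on chromosome I (10 genes), II (7), III (7), IV (3) and V (5). The X chromosome held 0 of them, beside 17.4% of all genes tested with oligo-dT and 13.6% of those tested with hexamers. In the files, 25 subunit genes have a locus of their own, and rpn-8 and rpt-4 share theirs with 1 other gene model. The remaining 5 lie in long merged loci: pas-3 (178 gene models), pbs-1 (188), rpn-9 (179), rpn-11 (526) and rpt-6 (33). The genome build behind the coordinates was not stated in the sources. As the files give it, the locus of rpn-11 spans chromosome II 2443297 to 4279128, and that of pbs-5, a gene alone in its locus, spans chromosome I 14719345 to 14720451.

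Subunit mRNAs were abundant, and all but 1 of those measured were within a narrow band of levels. With oligo-dT the median was 379 FPKM in N2 and 385 in fog-2, beside medians of 4.23 and 3.93 for all tested genes. With hexamers the median was 228 FPKM in N2 and 251 in fog-2, beside 26.2 and 29.2 for all tested genes. Without rpn-6.2, the highest subunit was 5.31 times the lowest in N2 and 5.22 times in fog-2 with oligo-dT, and 3.02 and 3.13 times with hexamers. The lowest of these subunits in N2 still stood above 91.5% of all tested genes with oligo-dT and above 88.0% with hexamers. FPKM is a value per length, but the ratio of levels between the primings still went with transcript length, as described below. Whether the order of subunit levels within a table goes with length was not tested.

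**Figure D1:**
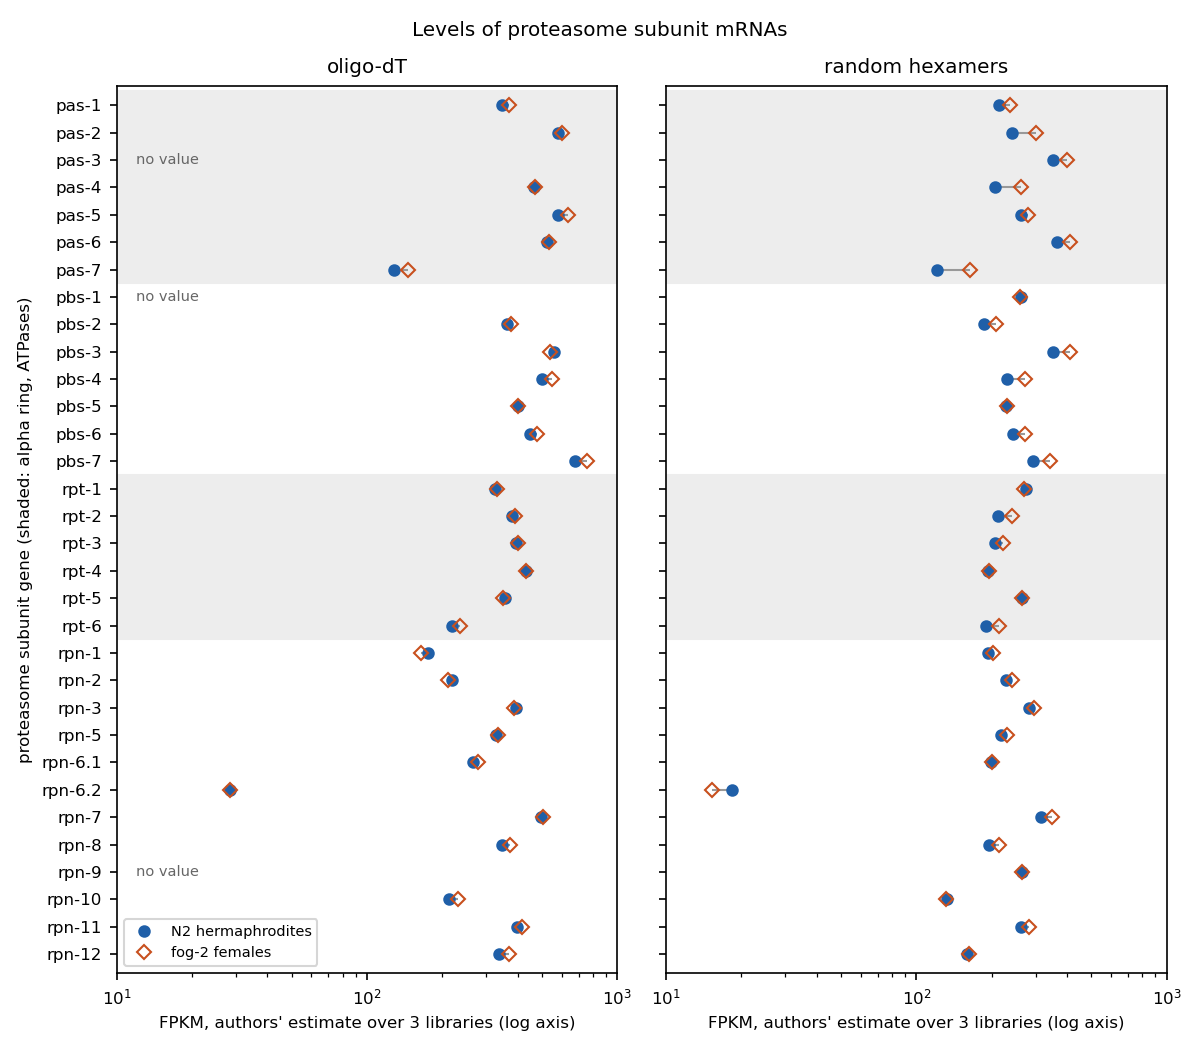
FPKM of each subunit gene (log axis) with oligo-dT priming (left) and random hexamers (right); filled circles are N2, open diamonds are fog-2, each the authors' estimate over 3 libraries with no spread available. Apart from rpn-6.2, at 15.2 to 28.4 FPKM, every plotted value lies between 120 and 758 FPKM, and 3 genes have no oligo-dT value.

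No subunit gene passed the authors' test between genotypes. With Cuffdiff's q-value of at most 0.05 in the authors' deposited tables as the call, 0 of 29 subunit genes were called with oligo-dT, where 1.43% of all tested genes were called, and 0 of 32 with hexamers, where 0.822% were called. At so low a background, 0 calls among about 30 genes says little about the subunits. Under an unadjusted p of 0.05 there were 0 of 29 with oligo-dT, beside 8.45% of all tested genes, and 2 of 32 with hexamers, both higher in fog-2, beside 8.97%. The median log2 fold was 0.05 with oligo-dT and 0.11 with hexamers, beside -0.03 and 0.10 for all tested genes.

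The size of the folds is more informative than the calls. With oligo-dT all 29 log2 folds lay between -0.09 and 0.18, that is a change from the N2 level of between -5.96% and 13.5%, where 46.3% of all tested genes were within 0.2 of 0. With hexamers the folds lay between -0.26 and 0.44, and 25 of 32 were within 0.2 of 0, beside 50.5% of all tested genes. Abundant genes have tighter folds as a whole. Among tested genes of at least 100 FPKM in both genotypes, a comparison chosen after the values were seen, 81.5% were within 0.2 of 0 with oligo-dT and 63.2% with hexamers, and the median log2 folds were 0.08 and 0.13. Folds above 0 numbered 23 of 29 subunits with oligo-dT and 27 of 32 with hexamers, beside 73.7% and 79.1% of those abundant genes and 46.1% and 67.1% of all tested genes. Set against the median of all tested genes, 26 of 29 subunits were above it with oligo-dT and 17 of 32 with hexamers. Of the abundant genes, 1471 of 1808 were above it with oligo-dT and 795 of 1428 with hexamers. A majority above 0 with hexamers is thus shared with the table as a whole. A majority above the oligo-dT median is shared with the abundant genes.

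**Figure D2:**
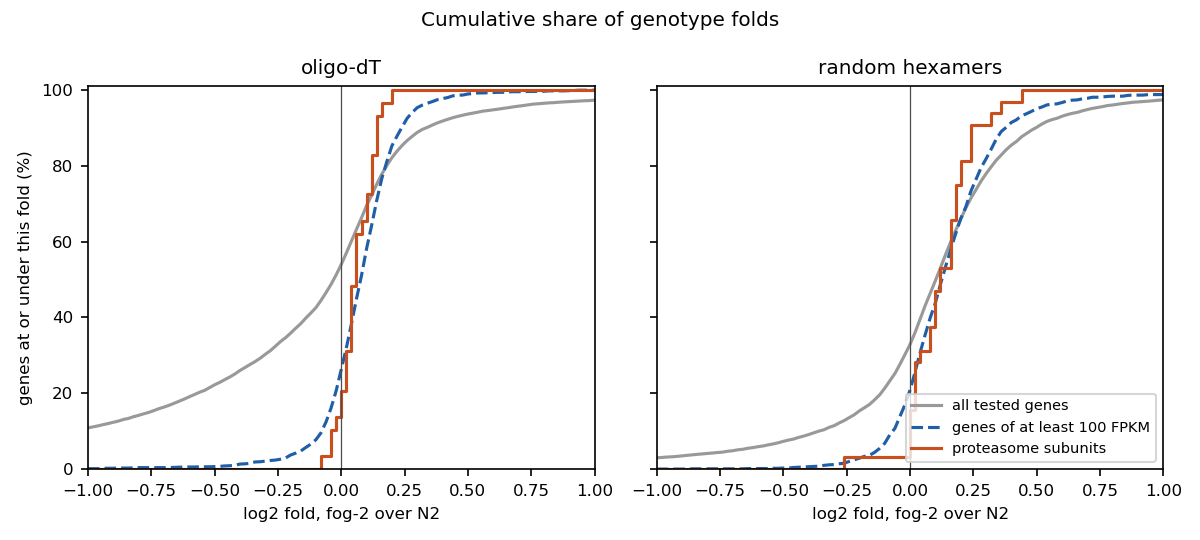
Cumulative share of genes (%) at or under each log2 fold of fog-2 over N2, for all tested genes (grey), tested genes of at least 100 FPKM in both genotypes (blue, dashed) and subunit genes (red steps), with oligo-dT (left) and hexamers (right). The subunit steps end at 0.18 with oligo-dT and at 0.44 with hexamers. They rise over a narrower range than both other curves, which hold many more genes. At a log2 fold of 0.14 with oligo-dT, near the widest gap between these curves, the subunits have reached 93.1% and the abundant genes 70.8%. At a log2 fold of 0 with oligo-dT they are at 20.7% and 26.3%. With hexamers, at a log2 fold of 0.14, the subunits are at 53.1% and the abundant genes at 53.4%. The abundant genes had a median N2 level of 192 FPKM with oligo-dT, under the 379 FPKM of the subunits.

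The precision behind these folds depended on the locus. For the 27 subunits in a locus of 1 or 2 gene models, the implied standard error was 0.13 to 0.18 with oligo-dT and 0.15 to 0.24 with hexamers. For subunits in the merged loci it was 0.38 (rpt-6) and 0.70 (rpn-11) with oligo-dT, and 0.47 to 2.17 over 5 genes with hexamers. The 95% interval of the fold stayed within 1.5-fold in either direction for 27 of 29 subunits with oligo-dT and for 23 of 32 with hexamers, and within 2-fold for 28 and 27. Outside 1.5-fold with hexamers were the 5 genes of merged loci and 4 that are alone in their locus, pas-2, pas-4, pas-7 and rpn-6.2. Standard errors taken from the authors' test score, an alternative chosen once the values were known, were larger. Their median over the tested subunits was 0.21 with oligo-dT and 0.24 with hexamers, beside 0.14 and 0.16 for the implied ones. With them the counts within 1.5-fold were 25 and 14. The SE and intervals given for single genes are the implied ones.

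**Figure D3:**
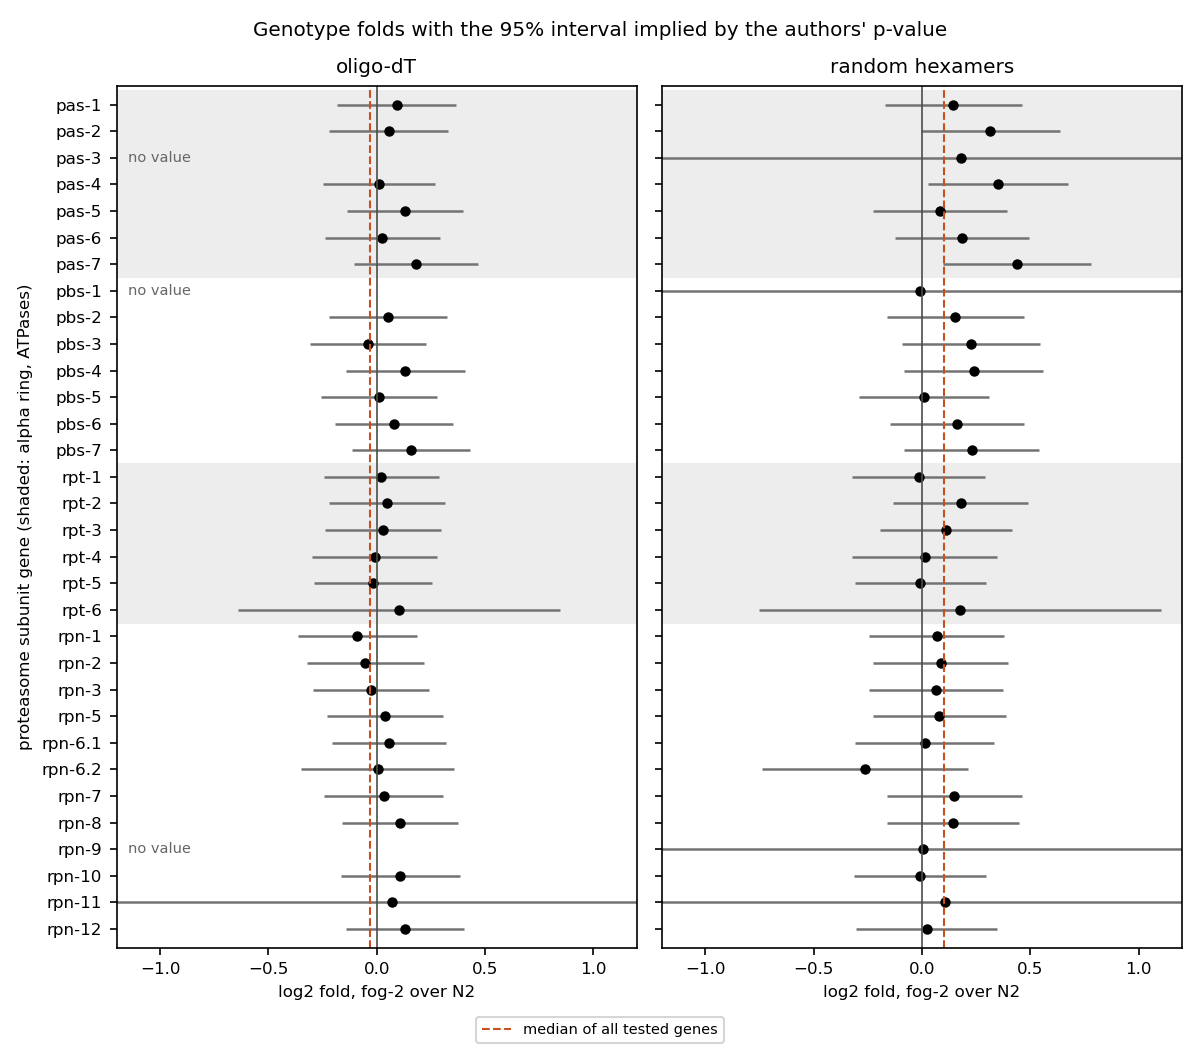
Log2 fold of fog-2 over N2 for each subunit gene with the 95% interval implied by the authors' p-value, for oligo-dT (left) and hexamers (right); the dashed line is the median of all tested genes. Intervals of pas-3, pbs-1, rpn-9 and rpn-11 run past the axis, and those of pas-4 and pas-7 with hexamers lie above 0.

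In the alpha ring, all 6 tested genes had folds above 0 with oligo-dT (median log2 fold 0.07) and all 7 with hexamers (median 0.18; 6 of 7 above the median of all tested genes), with 0 called. PAS-7 is an alpha subunit, and its gene had the lowest level of the tested genes of the ring with both primings. In N2 and fog-2 it was at 128 and 145 FPKM with oligo-dT and at 120 and 163 FPKM with hexamers. Its log2 folds were 0.18 (implied SE 0.15) and 0.44 (SE 0.17), with q = 0.823 and 0.356 and, for hexamers, an unadjusted p = 0.0117 in the authors' deposited table. The hexamer interval reached from a fold of 1.07 to 1.72. The alpha subunit gene pas-4 was at 465 and 468 FPKM in N2 and fog-2 with oligo-dT and at 206 and 263 with hexamers. Its hexamer log2 fold was 0.35 (SE 0.16), with q = 0.502 and an unadjusted p = 0.033 in the authors' deposited table, against 0.01 (SE 0.13) with oligo-dT. These 2 genes are the only subunits under an unadjusted p of 0.05 in either table. Next came pas-2, at 577 and 600 FPKM with oligo-dT and 241 and 299 with hexamers, with log2 folds of 0.05 and 0.32 (SE 0.14 and 0.16). The other alpha genes were pas-1, pas-5 and pas-6, with log2 folds of 0.03 to 0.13 with oligo-dT and 0.08 to 0.18 with hexamers, and pas-3, at 352 and 399 FPKM with hexamers and an SE of 2.17.

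In the beta ring, 5 of 6 tested genes had folds above 0 with oligo-dT (median 0.07) and 6 of 7 with hexamers (median 0.16; 5 of 7 above the median of all tested genes), with 0 called. The gene of the chymotrypsin-like subunit, pbs-5, was at 400 FPKM in N2 and at 403 in fog-2 with oligo-dT and at 228 and 230 with hexamers. Its fold was 1.01 with both primings, with intervals of 0.837 to 1.21 and 0.817 to 1.24. The gene of the trypsin-like subunit, pbs-2, was at 363 and 376 FPKM with oligo-dT and at 186 and 208 with hexamers (log2 folds 0.05 and 0.15, SE 0.14 and 0.16). The gene of the caspase-like subunit, pbs-1, had no oligo-dT value. With hexamers it was at 261 and 259 FPKM, but its interval, from a 0.123-fold to an 8.0-fold level, leaves its genotype fold undetermined. Among the non-catalytic beta genes, pbs-7 had the highest oligo-dT level of all subunits measured, at 679 and 758 FPKM, and was at 292 and 342 FPKM with hexamers. Its log2 folds were 0.16 (SE 0.14) and 0.23 (SE 0.16), and those of pbs-4 were 0.13 (SE 0.14) and 0.24 (SE 0.16). The gene pbs-3 was at 557 and 541 FPKM with oligo-dT and at 353 and 413 with hexamers, and pbs-6 at 450 and 476 and at 243 and 271.

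The ATPase genes had median log2 folds of 0.03 with oligo-dT and 0.06 with hexamers over 6 genes, 4 of them above 0 each time, and 0 called. With hexamers 3 of the 6 were above the median of all tested genes. With oligo-dT, rpt-1 was at 325 FPKM in N2 and 330 in fog-2, rpt-4 at 433 and 430, and rpt-5 at 355 and 351. With hexamers the same genes were at 273 and 270, at 193 and 195, and at 265 and 264 FPKM. Their 6 log2 folds were between -0.02 and 0.02, with SE of 0.14 to 0.17. The genes rpt-2 and rpt-3 were at 379 and 392 and at 395 and 403 FPKM with oligo-dT, with hexamer log2 folds of 0.18 and 0.11. The gene rpt-6, in a merged locus, had the lowest N2 level of the ATPases with both primings, at 219 FPKM with oligo-dT (235.0 in fog-2) and at 190 with hexamers (215 in fog-2), the latter close to rpt-4.

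Among the non-ATPase genes, 8 of 11 tested had folds above 0 with oligo-dT (median 0.04) and 10 of 12 with hexamers (median 0.07; 3 of 12 above the median of all tested genes), with 0 called. The base scaffolds RPN-1 and RPN-2 are the largest subunits. The gene rpn-1, whose product also binds ubiquitin, was at 175 FPKM in N2 and at 164 in fog-2 with oligo-dT and at 192 and 202 with hexamers (log2 folds -0.09 and 0.07, SE 0.14 and 0.16). The gene rpn-2 was at 219 and 211 FPKM and at 228 and 242. For both genes the folds of the 2 primings lay on opposite sides of 0, each within 1 standard error of it. Opposite signs were also seen in pbs-3, rpn-3, rpn-6.2, rpn-10, rpt-1 and rpt-4. Of these, pbs-3 (0.23, SE 0.16) and rpn-6.2 (-0.26, SE 0.24) had hexamer log2 folds more than 1 standard error from 0. Centred on the median of all tested genes, the folds of rpn-1 were -0.06 (oligo-dT) and -0.03 (hexamers). Those of rpn-2 were then -0.02 with each priming, so the opposite signs of this pair were not kept after centring. The ubiquitin receptor gene rpn-10 was at 214 and 230 FPKM with oligo-dT and at 133 and 132 with hexamers (log2 folds 0.11 and -0.01, SE 0.14 and 0.16; q = 0.920 and 0.999 in the authors' deposited table). The interval of its fold was 0.891 to 1.30 with oligo-dT and 0.805 to 1.23 with hexamers. Another ubiquitin receptor, RPN-13, is listed in the files under the sequence name C56G2.7 and is outside the naming rule. It was at 237 and 234 FPKM with oligo-dT and at 188 and 194 with hexamers (log2 folds -0.01 and 0.05, SE 0.14 and 0.16). The gene of the deubiquitinase of the lid, rpn-11, was at 398 and 417 FPKM and at 263 and 283, with SE of 0.70 and 0.83 in its merged locus.

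The lid genes rpn-3, rpn-5, rpn-7, rpn-8 and rpn-12 had log2 folds of -0.03 to 0.13 with oligo-dT and of 0.02 to 0.15 with hexamers. The lid gene rpn-9, measured with hexamers alone, was at 263 and 264 FPKM with an SE of 0.91. RPN-6.1 clamps the lid to the core, and in worms its gene is known for raising proteasome activity when overexpressed. It was at 266 FPKM in N2 and at 276 in fog-2 with oligo-dT and at 198 and 200 with hexamers. Its paralog rpn-6.2 was at 28.3 and 28.4 FPKM with oligo-dT and at 18.3 and 15.2 with hexamers. The rpn-6.1 level was thus 9.39 times that of rpn-6.2 in N2 and 9.73 times in fog-2 with oligo-dT, and 10.8 and 13.1 times with hexamers. The paralogs may share reads, and how the authors assigned those was not described in these sources. The hexamer log2 fold of rpn-6.2, -0.26 (SE 0.24), was the lowest of all subunits, with q = 0.890 in the authors' deposited table.

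Set by particle, the 14 core genes had a median hexamer log2 fold of 0.18 and the 18 regulatory-particle genes one of 0.07, beside 0.10 for all tested genes; with oligo-dT the medians were 0.07 over 12 and 0.03 over 17 genes. Both medians of the core were the higher ones, a difference that was seen in the data and not tested, since genes are not replicates. Among other large complexes, cytosolic ribosomal protein genes had medians of 0.04 (61 tested) and 0.26 (73 tested). CCT chaperonin genes had -0.08 (7) and 0.01 (8), and vacuolar ATPase genes 0.07 (14) and 0.28 (19). In each 0 were called, beside 1.43% and 0.822% of all tested genes, which says little. Under Cuffdiff's unadjusted p of 0.05 with hexamers, 16 of 73, 0 of 8 and 5 of 19 were higher, in this order, beside 6.37% of all tested genes. With oligo-dT 0 of 61, 0 of 7 and 1 of 14 were higher, beside 2.2%. With hexamers, 73 of 73 ribosomal protein genes and 19 of 19 vacuolar ATPase genes had folds above 0, as had 27 of 32 proteasome genes and 4 of 8 chaperonin genes. Above the hexamer median of all tested genes were 72, 18, 17 and 2 of them, in the same order. These differences between complexes were not tested.

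The design also asks whether the genotype fold differs between primings. For each of 8593 genes tested with both, the hexamer log2 fold was subtracted from the oligo-dT log2 fold, centred on the median over all genes (-0.06) and divided by the combined implied standard error, taken as independent although both primings share RNA samples. With Benjamini-Hochberg adjustment over all 8593 genes (normal test, two-sided), 0 of 29 subunits were called, beside 0% of all genes, so this test made no call anywhere and its 0 says nothing particular about the subunits. Under an unadjusted p of 0.05 there were 0 of 29 subunits and 1.61% of all genes. The centred differences had a median of -0.02, with 16 of 29 below 0, beside 50% of all genes. The most negative was in pas-4 (-0.28, SE 0.21) and the most positive in rpn-6.2 (0.32, SE 0.30). For pas-7 the difference was -0.26 before centring and -0.20 after it, with a combined SE of 0.23.

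The primings did give different subunit levels within a genotype. In N2, the log2 ratio of oligo-dT FPKM over hexamer FPKM had a median of 0.69 over 29 subunits and ran from -0.14 to 1.26; in fog-2 the median was 0.70, from -0.30 to 1.19. The medians over 8593 genes were 0.59 and 0.56, so as a group the subunits stand near the other genes. The tables were normalized separately and the ratio has no replicate error, so it is given as a description. In N2 the ratio was lowest in rpn-1 (-0.14), rpn-2 (-0.06) and pas-7 (0.09) and highest in pas-2 (1.26), pbs-7 (1.22) and pas-4 (1.17). Accordingly pas-7 stood far below the other alpha genes measured with oligo-dT, at 128 FPKM where those had 346 to 579. With hexamers it was closer, at 120 FPKM where the other alpha genes had 206 to 363.

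The ratio went with transcript length among the subunits. The longest annotated transcripts, in WBcel235, run from 801 bases (pbs-4) to 3171 (rpn-1) and 3102 (rpn-2). Spearman's rho between the ratio and this length was -0.67 in N2 and -0.56 in fog-2 over 29 subunit genes, and -0.67 and -0.64 over 7156 genes with a matched length. Genes are not replicates and the ratio has no replicate error, so this is a description with no test. The pair of long scaffold genes sits at the low end of this relation, while pas-7, with 979 bases, has a low ratio at a short length. The order of subunit levels also differed more between primings than between genotypes: Spearman's rho of levels over the 29 genes was 0.70 between the primings in N2, and 0.99 (oligo-dT) and 0.95 (hexamers) between genotypes.

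**Figure D4:**
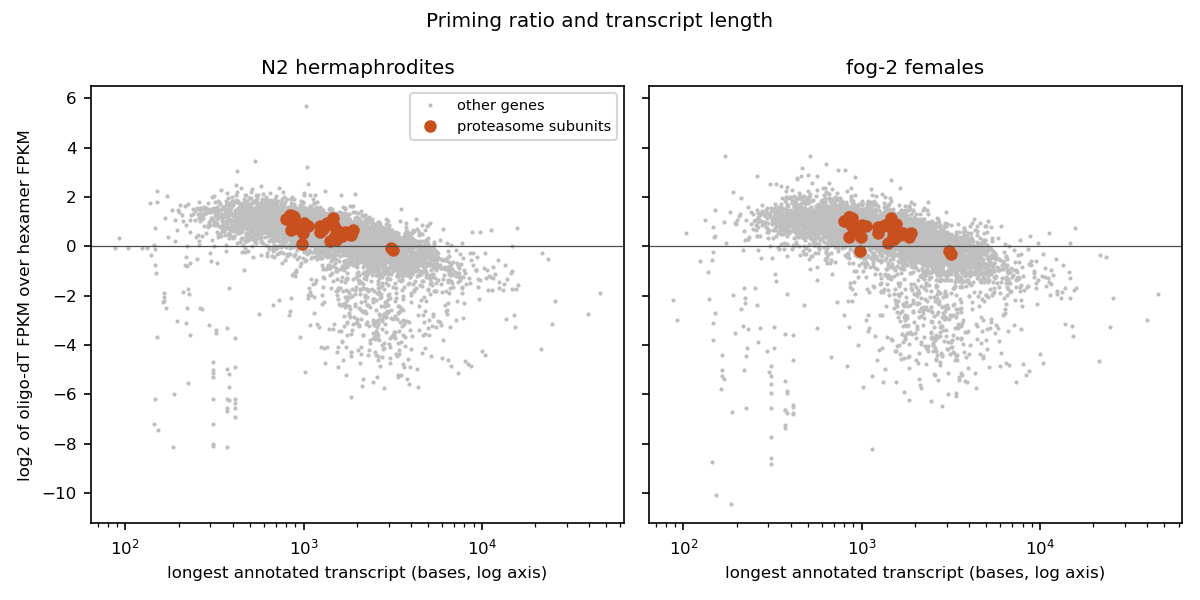
Log2 of oligo-dT FPKM over hexamer FPKM against the longest annotated transcript (bases, log axis), in N2 (left) and fog-2 (right), for 29 subunit genes (red) and the other genes with a matched length (grey). The subunits follow the downward trend of the other genes (rho -0.67 in N2 for both), with rpn-1 and rpn-2 at the right and low.

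Other genes of the ubiquitin-proteasome pathway were taken from a list of 32, of which 31 were tested with each priming. With a q-value of at most 0.05 in the authors' deposited tables, 0 were called with either priming. Of all tested genes, 1.43% (oligo-dT) and 0.822% (hexamers) were called, so 0 calls among 31 genes says little. The pathway genes had median log2 folds of 0.05 (oligo-dT) and 0.06 (hexamers), beside -0.03 and 0.10 for all tested genes. Above the median of all tested genes stood 23 of the 31 for oligo-dT but 12 of the 31 for hexamers. Under an unadjusted p of 0.05, 3 of 31 genes passed with each priming, all of them higher in fog-2. In either direction, 8.45% (oligo-dT) and 8.97% (hexamers) of all tested genes passed, and 2.20% and 6.37% passed as higher. Among tested genes of at least 100 FPKM in both genotypes, 74 of 1808 (oligo-dT) and 131 of 1428 (hexamers) passed as higher. Whether 3 of 31 exceeds these shares was not tested. The gene aip-1, whose product binds the 19S particle under arsenite stress, was among the 3 with both primings. It was at 82.5 and 105 FPKM with oligo-dT and at 54.6 and 76.2 with hexamers (log2 folds 0.35 and 0.48, SE 0.16 and 0.20; q = 0.477 and 0.426 in the authors' deposited table). The gene dss-1, for a small lid protein that the naming rule misses, was at 281 and 357 FPKM with oligo-dT (log2 fold 0.35, SE 0.17; q = 0.554 in the authors' deposited table) and at 146 and 173 with hexamers (0.25, SE 0.24). The third with oligo-dT was chn-1, for the ubiquitin ligase CHIP, at 97.2 and 121 FPKM (0.31, SE 0.15).

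With hexamers the others were rbx-1 and cul-3, which encode the RING protein and a cullin of cullin-RING ubiquitin ligases. The gene rbx-1 was at 235.4 and 347 FPKM (log2 fold 0.56, SE 0.19; q = 0.162 in the authors' deposited table) but at 450 and 438 with oligo-dT (-0.04, SE 0.15). Its priming difference was -0.60 before centring (SE 0.24) and was not called over all genes. The gene cul-3 was at 71.4 and 90.6 FPKM with hexamers (0.34, SE 0.16) and at only 5.88 and 6.25 with oligo-dT. In worms the transcription factor SKN-1, in a form processed by the protease DDI-1 and the deglycosylase PNG-1, activates subunit genes. The gene skn-1 had log2 folds of 0.05 (oligo-dT) and 0.01 (hexamers), ddi-1 had 0.07 and 0.06, and png-1, which lies in a long merged locus, had 0.05 and 0.28, none of them called. The gene cul-2, for the cullin of the ligase that uses FEM proteins to target TRA-1, had log2 folds of -0.11 and 0.03.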

How the data were processed

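Whole-worm RNA was prepared with Trizol and libraries with Illumina's TotalScript kit, per the labels. Titles set the 4 groups, although 2 samples titled N2 carry another strain name and 1 hexamer library has an oligo-dT description. Cuffdiff, Cufflinks 2.1.1 and TopHat are listed in the submitters' processing notes, and neither the build nor the annotation is. For each gene the authors deposited, per the file headers, an FPKM per genotype with the q-value, p-value and test score of Cuffdiff. Calls are theirs, among genes with status OK. Locus starts were taken as counted from 0 and raised by 1. Columns of per-sample values left unused numbered 0, and 1 unnamed row per table was left out.

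With Python 3.11.15, numpy 2.4.6, pandas 2.3.3 and scipy 1.17.1, log2 folds, implied standard errors and priming differences were computed. The difference test was tested on simulated data in which the errors of both primings were independent. The real primings share RNA samples, so the simulation does not check the test in that setting. No filter or pseudocount was used. No count test was run on FPKM. The design calls samples biological replicates. Depth is unknown. Members and lists were chosen with earlier results of these data known. All members are named; fuller values follow a rule: the 5 lowest and 5 highest mean folds, catalytic beta genes, ubiquitin receptors, rpn-11 and the rpn-6 paralogs. Pathway genes are named with an unadjusted p under 0.05, and skn-1, ddi-1, png-1 and cul-2 were added after values were seen. No promoter search was made, since no promoter sequence was used here. Alternatives were another q threshold, unadjusted p, 1 FPKM added, a 1 FPKM minimum, median centring and leaving out shared loci.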

Additional observations from a re-analysis of the deposited data

How the results depend on the processing

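The number of subunits called was also 0 for both primings with q at or under 0.1 and with centred folds. It was 0 as well with at least 1 FPKM in both genotypes, which removes no tested subunit, and without shared loci, which could only remove calls. With an unadjusted p under 0.05 the hexamer count was 2. With standard errors from the test score, 14 hexamer intervals lay within 1.5-fold, as against 23. Centring folds on the median of all tested genes turned the sign of 3 subunits with oligo-dT and 10 with hexamers; among those given in full these were rpt-4 (0.020) and rpt-5 (0.013) with oligo-dT, and pbs-5 (-0.092), rpn-1 (-0.034), rpn-6.1 (-0.089) and rpt-4 (-0.089) with hexamers, none called either way. Centred, the hexamer median of the subunits was 0.0065; relative to genes of at least 100 FPKM the medians were -0.03 (oligo-dT) and -0.02 (hexamers). Standard errors of the priming difference were also scaled by 0.645, a factor set from these same data. It gives the scores of all genes the median absolute size of a normal distribution, so it is no independent measure of error. The priming difference was then called in 0 of 29 subunits and in 58 of 8593 genes (0.675%). No paired analysis was possible because the deposited columns hold 1 pooled value per group and carry no replicate; for the same reason no library could be left out. Unknown depth and merged loci limit what these folds can show.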
